A study of Danio rerio with 40 samples.

Results

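DNA methylation was compared between testes and ovaries of zebrafish (*Danio rerio*) reared at the control density of 9 fish/L. The comparison holds 10 males and 10 females, which are 20 of the 40 fish of the series, and the fish were chosen by the sex and the control label of each sample. All of them were laboratory fish of the AB strain, sampled at 90 days of age, and 1 whole gonad of each fish gave 1 library. The other 20 fish had been held at 66 fish/L from 18 to 45 days post-fertilization (dpf) and served here only to see where the sex difference departed between densities. The fish came from a single family, which the text of the study numbers in different ways in its results and its methods. Sex was taken from the labels, since no expression was analysed here by which the gonads could be checked.

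In vertebrates, DNA methylation is the addition of a methyl group to cytosine, mostly where a guanine follows (CpG), and methylation close to a transcription start site (TSS) often goes with low transcription. In fish, the gonad can take the male or the female path under the influence of steroids, and the genes examined here are a regulator of testis development, 4 steroidogenic enzymes and the enzyme that maintains DNA methylation. A gonad is a mixture of germ cells and somatic cells, so that another share of a cell type and another methylation within it cannot be told apart in these data.

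Bisulfite turns unmethylated cytosines into bases that are read as thymine, and the regions were then copied by PCR and sequenced. The methylation level of a cytosine in a fish is the percentage of its reads that were methylated. The level of a gene is the unweighted mean over the cytosines of its amplicon covered by more than 5 reads. The amplicons lie on 5 chromosomes of the GRCz11 assembly, and each covers a stretch before the TSS and reaches past it. Distances below are in bp from the TSS, negative before it. Primers are shown for *dmrt1* and *cyp19a1a*, whose sex differences ran in opposite directions, because they fix which molecules were read. Of the primers of the 6 genes, 0 of 12 hold a CpG, 0 of the 6 forward primers hold a C and 0 of the reverse primers a G, so that all are written for converted DNA.
*dmrt1* forward: aatattttttattgtggtgtttgtt
*dmrt1* reverse: caaaataacctctcataaccttatc
*cyp19a1a* forward: tattttttgtttgtttgtaggtttgat
*cyp19a1a* reverse: caacaatattataactataactccacac

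The summed depth of the 6 amplicons ranged from 12139 to 110879 reads in testes (median 52936.5) and from 5415 to 86657 reads in ovaries (median 44179). Of the 20 fish, 3 were under 20000 reads. The counts do not separate PCR copies of 1 molecule, and confidence intervals on the reads of a fish therefore cover counting error only. The lists hold more cytosines than the 99 CpGs that the primer design counts. For this reason each level is given over all listed cytosines and again over the design CpGs, which are here the cytosines with the most reads, as many per amplicon as the design counts. Of the 20 tested cytosines outside that set, 16 read under 1% in both sexes. Counting also those covered in too few fish to be tested, a testis held between 3 and 8 such cytosines for *cyp19a1a* and an ovary between 0 and 8, while *dmrt1* had 0 in every fish. In testes, the level over all listed cytosines was lower where more of them were covered. The level is a mean that includes these cytosines, so that those reading near 0 lower it by construction. The coefficients below describe this averaging, and their *p*-values are no separate result about the fish. For *cyp19a1a* r was −0.988 and Spearman's coefficient −0.953 (n = 10, permutation *p* = 1.1e-04 and 1.8e-04, adjusted 5.5e-04 and 9.0e-04 over 10 relations, r = −0.974 without the 2 fish farthest from the median number). For *cyp11c1* r was −0.936 and Spearman's coefficient −0.969 (permutation *p* = 7.0e-05 and 4.0e-05, adjusted 5.5e-04 and 4.0e-04, r = −0.963 without 2 fish). For *hsd11b2* they were −0.923 and −0.749 (permutation *p* = 0.00477 and 0.0209, adjusted 0.0159 and 0.0698), and r was −0.524 without 2 fish. None of the other 7 relations had an adjusted *p* under 0.05. The part of this in the spread of testes over all listed cytosines, in single testes that stand apart and in relations between genes on that scale was not tested.

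The first question was how far testes and ovaries differ in each gene. Testes were less methylated than ovaries in *dmrt1* and more methylated in *cyp19a1a*, *hsd17b1*, *hsd11b2* and *cyp11c1*, and in these 5 genes all 10 testes lay outside the range of the 10 ovaries. Each had *p* = 1.08e-05, the smallest value that the exact permutation test over 184756 splits can give, and an adjusted *p* of 1.3e-05 over the 6 genes. These differences kept their direction and passed the test when any 1 fish was left out. In *dnmt1* the mean difference was smaller than the spread between fish.

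**Figure D1:**
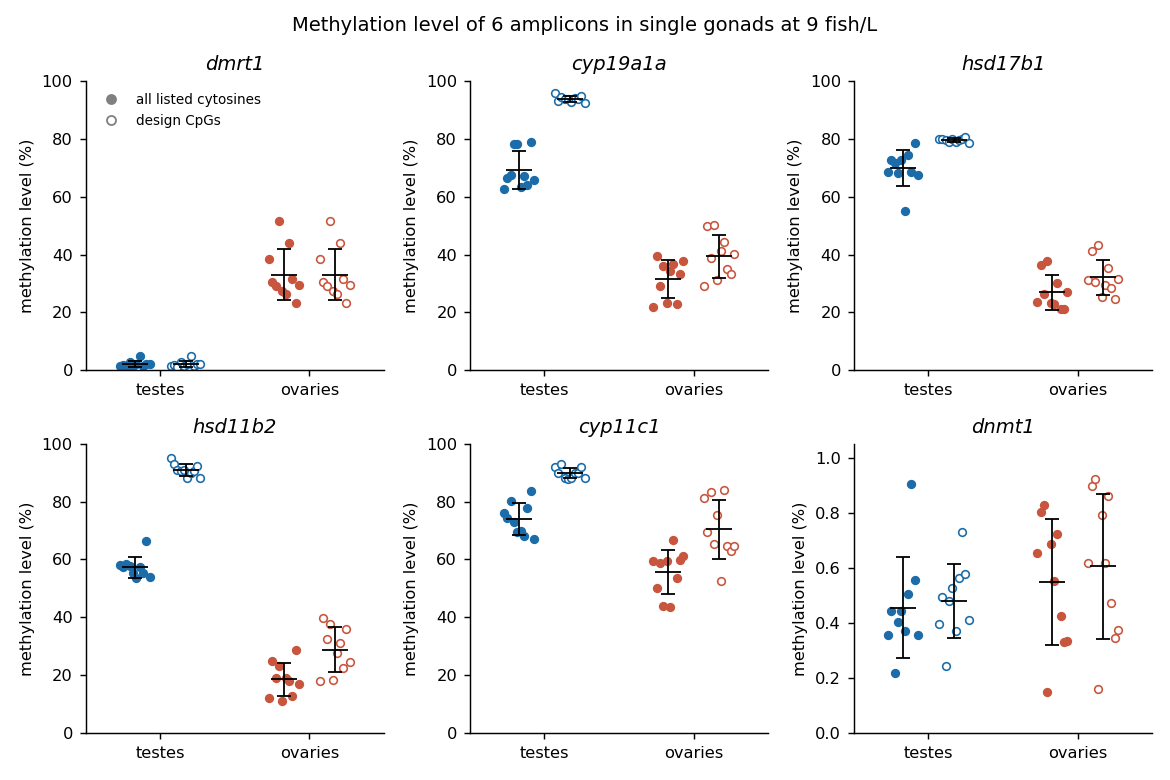
Methylation level (%) of each gene in single gonads at 9 fish/L, testes on the left and ovaries on the right of each panel. Filled points are levels over all listed cytosines, open points levels over the design CpGs, and black bars the mean ± SD of 10 fish. Testes and ovaries do not overlap in *dmrt1* (means 2.14% and 33.1%) or in the 4 steroidogenic genes, and they overlap in *dnmt1*, whose axis ends just above 1%.

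At single cytosines, 119 were covered by more than 5 reads in at least 6 fish of each sex and were tested. Of these, 77 (64.7%) differed at an adjusted *p* under 0.05 by the exact permutation test, 53 (44.5%) with a higher and 24 (20.2%) with a lower level in testes. The ranges of the sexes were apart at 51 (42.9%). All 24 cytosines that were lower in testes belong to *dmrt1*. Among the 99 design CpGs, 50 were higher in testes, 24 were lower and 25 were not called.

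**Figure D2:**
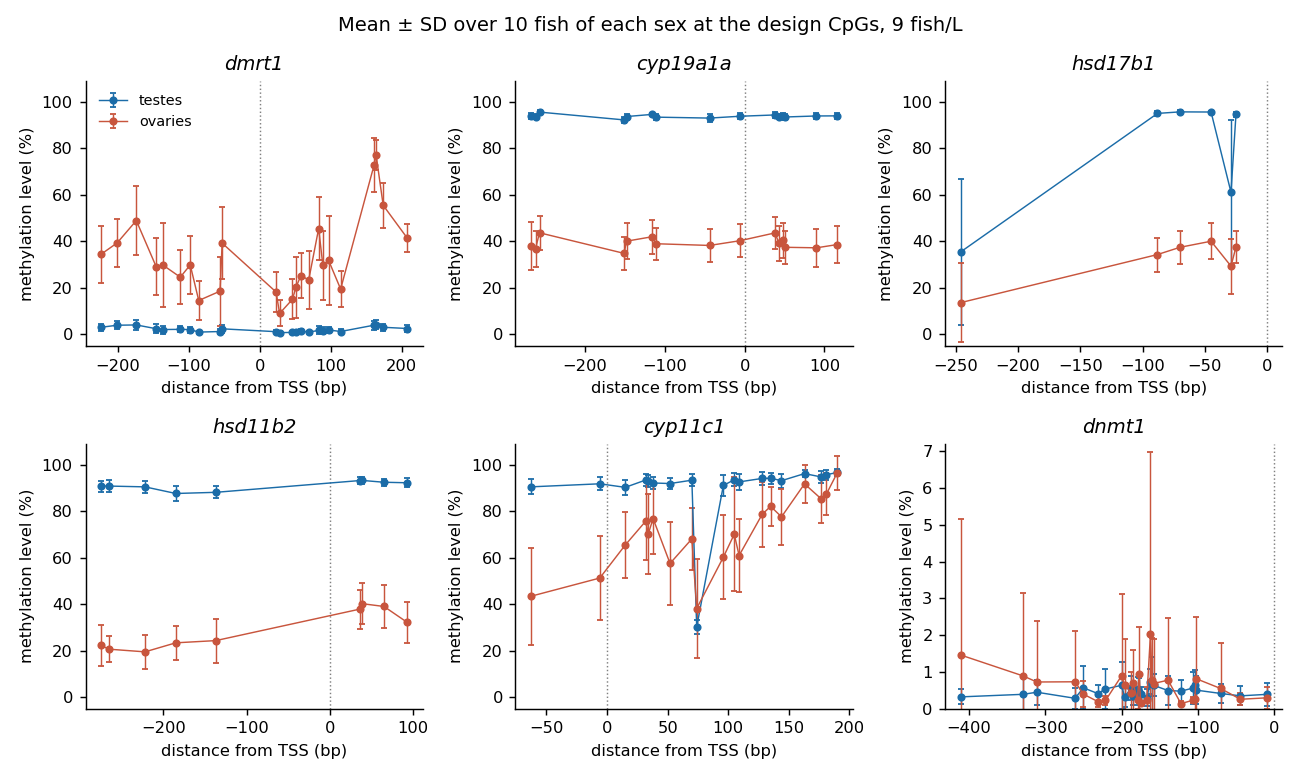
Mean methylation level (%) of each design CpG against its distance from the TSS (bp), with bars for the SD over 10 testes (blue) and 10 ovaries (red). Testes formed a flat line near the top for *cyp19a1a* and *hsd11b2* and near 0 for *dmrt1*, and ovaries varied along *dmrt1* (site means 9.05% to 77.2%) and *cyp11c1*. The *dnmt1* axis is enlarged and starts at 0, which hides the lower ends of wide bars.

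*Dmrt1* codes for a transcription factor of testis development. Its amplicon covers positions 44344542 to 44345024 of chromosome 5 (plus strand), with 24 CpGs, 10 of them before the TSS. The level was 2.14% ± 1.16 in testes (SD, n = 10; lowest 0.95%, median 1.81%, highest 5.04%). In ovaries it was 33.1% ± 8.80 (SD, n = 10; lowest 23.3%, median 29.9%, highest 51.5%). Every testis was therefore below every ovary, by at least 18.2 percentage points, and the mean difference was −30.9 percentage points. The testis with the highest level, G20, stood apart from the next at 2.87%.

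All 24 *dmrt1* CpGs were lower in testes by the exact permutation test, and the ranges were apart at 16 of them. The site means ran from 0.798% to 4.24% in testes and from 9.05% to 77.2% in ovaries. The CpG with the largest difference lies 164 bp after the TSS (position 44344955), with 4.24% ± 2.09 in testes and 77.2% ± 6.43 in ovaries (difference −72.9 percentage points, exact permutation test, adjusted *p* = 2.58e-05). The smallest difference was found 28 bp after the TSS (position 44344819), where testes had 0.798% ± 0.650 and ovaries 9.05% ± 5.60 (exact permutation test, adjusted *p* = 2.45e-04). The level of ovaries thus varied widely within the same amplicon. Among testes the widest spread was at −174 bp, with a range of 1.54% to 8.97% against 33.3% to 79.3% in ovaries. Among ovaries it was at 97 bp, where testes had 0.386% to 5.08% and ovaries 11.1% to 67.8%.

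The depth behind *dmrt1* differed between the sexes, with 245 to 2461 reads per fish in testes (median 724) and 9 to 1608 in ovaries (median 69). Where the ranges of a CpG overlapped, the lowest ovary was G12, G17 or G19, with 20, 9 and 11 reads. At 97 bp, the 11.1% was that of G17, and G19 had 63.6%. At the CpGs of ovaries the SD that counting alone gives was 8.09 percentage points at the median, against 0.625 in testes. Only 4 ovaries had 100 reads or more. With at least 100 reads asked of each value, the level was 2.14% in the 10 testes and 37.9% in these 4 ovaries.

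*Cyp19a1a* codes for the gonadal aromatase, which turns androgens into estrogens. Its amplicon covers positions 39655109 to 39655578 of chromosome 18 (minus strand), with 15 CpGs, 9 of them before the TSS. The level over all listed cytosines was 69.2% ± 6.58 in testes (62.6% to 79.0%) and 31.5% ± 6.67 in ovaries (21.8% to 39.5%; SD, n = 10 each), a difference of 37.7 percentage points. Over the 15 design CpGs it was 93.9% ± 1.06 in testes (92.3% to 95.9%) and 39.3% ± 7.37 in ovaries (29.02% to 50.2%). The gap between the lowest testis and the highest ovary was then 42.0 percentage points.

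This amplicon was even along its length in both sexes. All 15 design CpGs were higher in testes with ranges apart, and the site means ran from 92.3% to 95.6% in testes and from 34.9% to 43.7% in ovaries. The largest difference, at −151 bp (position 39655404), was 57.4 percentage points (92.3% ± 1.31 in testes and 34.9% ± 7.23 in ovaries). The smallest, at 38 bp (position 39655215), was 50.7 percentage points (94.4% ± 1.14 in testes and 43.7% ± 6.78 in ovaries). Spread was widest among testes at −44 bp (SD 1.55) and among ovaries at −268 bp (SD 10.3). Both are small beside the differences.

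The enzyme encoded by *hsd17b1* takes part in the last step of estradiol synthesis. The amplicon covers positions 17897321 to 17897746 of chromosome 3 (minus strand) and holds 6 CpGs, all before the TSS. Over all listed cytosines testes had 69.8% ± 6.21 (55.1% to 78.6%) and ovaries 27.0% ± 6.04 (21.2% to 37.7%; SD, n = 10 each), a difference of 42.8 percentage points. Over the 6 design CpGs testes had 79.6% ± 0.629 and ovaries 32.1% ± 6.15, so that testes had an SD under 1 percentage point around a level below that of *cyp19a1a*.

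The single CpGs of *hsd17b1* showed that this even level is made of unequal parts. At −25, −45, −70 and −88 bp, testes had 94.7% to 95.7% and ovaries 34.4% to 40.1%, with ranges apart at each. At −88 bp (position 17897439) testes had 95.1% ± 0.905 and ovaries 34.4% ± 7.30. The other 2 CpGs, described here after their values had been seen, varied between fish. The lists hold no base calls, and whether every fish carries a CpG at these 2 positions was not tested. Their values are shares of reads counted as methylated and may not be the methylation of an intact CpG, which also holds for the sex difference at −29 bp. At −29 bp (position 17897380) testes had 61.2% ± 31.1 and ovaries 29.4% ± 11.9 (difference 31.8 percentage points, with *p* = 0.00816 by the exact permutation test and 0.0137 after adjustment). At −246 bp (position 17897597) testes had 35.5% ± 31.4 and ovaries 13.7% ± 16.9 (difference 21.8 percentage points, with *p* = 0.0701 by the same exact test and 0.104 after adjustment). The cytosine beside it at −247 bp, outside the design CpGs, had only 6 to 123 reads in testes and 9 to 91 in ovaries. It read 21.6% ± 21.9 in testes and 2.88% ± 3.97 in ovaries and was called (exact permutation test, adjusted *p* = 0.0165). Adjacent positions can be the 2 strands of 1 CpG, so that the limit given for −246 bp holds for this call too.

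Fish by fish, the CpGs at −29 and −246 bp were the mirror image of each other. In testes G3, G10, G21 and G26 the level at −29 bp was between 93.6% and 96.5%, and that at −246 bp between 0.41% and 1.12%. In testes G4, G9, G11 and G18, the CpG at −29 bp had 46.1% to 47.6% and the CpG at −246 bp 48.6% to 51.3%. Testis G20 had 23.01% at −29 bp and 73.0% at −246 bp, and testis G24 had 19.3% and 77.7% at these CpGs. The sum of both CpGs came to 100.3% to 102.6% of the mean of the other 4 CpGs in testes.

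Ovaries showed the same kinds of combination at a lower level. The level at −246 bp was 0.322% to 2.92% in 6 ovaries (G1, G5, G14, G15, G17 and G19), in which the level at −29 bp was between 29.2% and 44.3%. Ovaries G2 and G12 had 26.5% and 18.1% at −29 bp, beside 30.1% and 20.5% at −246 bp. In ovaries G6 and G7 the CpG at −246 bp was the higher one, with 45.9% and 31.2% against 16.0% and 8.56% at −29 bp. The sum of both CpGs was 105% to 142% of the mean of the other 4 CpGs in ovaries. The Wilson interval of 95% on a single value reached at most 2.11 percentage points to either side in testes and 3.17 in ovaries.

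**Figure D3:**
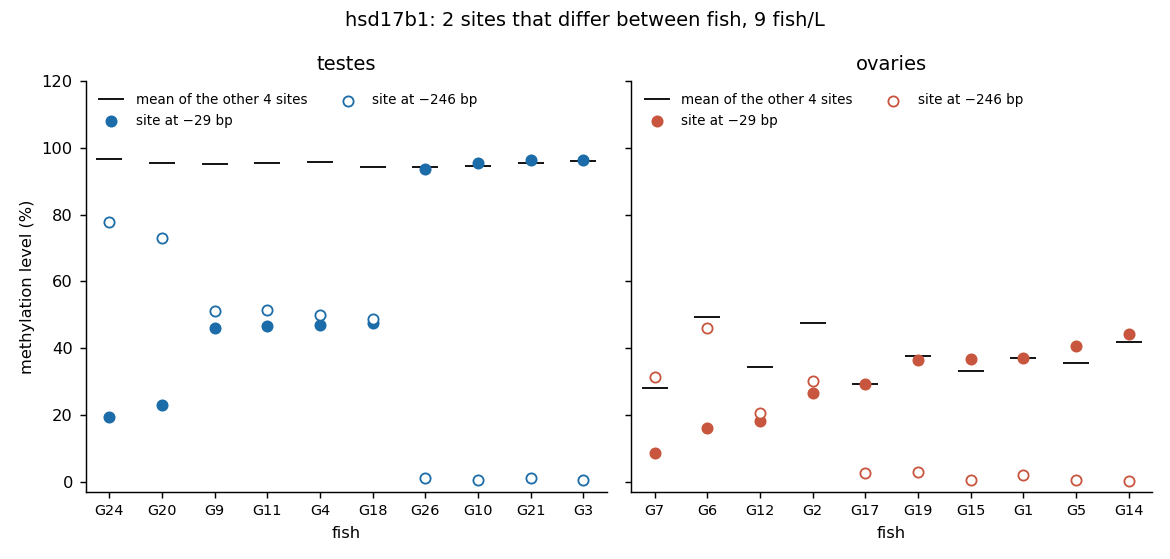
Methylation level (%) of the *hsd17b1* CpGs at −29 bp (filled) and −246 bp (open) in each testis (left panel) and ovary (right panel), ordered by the level at −29 bp. The dash is the mean of the other 4 CpGs of the same fish. In testes the points pair up near 95% and 1%, near 47% and 50%, or with the CpG at −246 bp on top (73.0% and 77.7%).

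*Hsd11b2* codes for an enzyme that inactivates cortisol and, in fish, takes part in the synthesis of 11-ketotestosterone. Its amplicon covers positions 34854510 to 34854994 of chromosome 7 (minus strand), with 9 CpGs, 5 of them before the TSS. Over all listed cytosines the level was 57.3% ± 3.59 in testes (53.4% to 66.2%) and 18.5% ± 5.77 in ovaries (10.9% to 28.6%; SD, n = 10 each), a difference of 38.8 percentage points. Over the 9 design CpGs testes had 91.0% ± 2.11 (88.1% to 95.1%) and ovaries 28.8% ± 7.87 (17.9% to 39.7%). This difference of 62.2 percentage points was larger than that of any other gene here over the design CpGs, a ranking that was not tested.

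All 9 design CpGs of *hsd11b2* were higher in testes with ranges apart. At −222 bp (position 34854855) testes had 90.5% ± 2.60 and ovaries 19.5% ± 7.35, the largest difference among them (71.0 percentage points). At 39 bp (position 34854594) testes had 93.2% ± 1.45 and ovaries 40.2% ± 8.86, the smallest (53.0 percentage points). Testes spread most at −185 bp (SD 3.05) and ovaries at −137 bp (SD 9.47). Of the cytosines outside the design CpGs, those at −277 and −279 bp were not near 0. The first read 91.1% in testes and 20.2% in ovaries, and the second 85.7% in 9 testes and 12.3% in 7 ovaries.

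In fish, *cyp11c1* codes for the 11β-hydroxylase needed for cortisol and for 11-oxygenated androgens. Its amplicon covers positions 54645580 to 54645995 of chromosome 16 (minus strand), with 19 CpGs, 2 of them before the TSS. Over all listed cytosines the level was 74.0% ± 5.47 in testes (67.0% to 83.6%) and 55.6% ± 7.66 in ovaries (43.5% to 66.6%; SD, n = 10 each), a difference of 18.3 percentage points. The lowest testis and the highest ovary were only 0.413 percentage points apart. Over the 19 design CpGs testes had 89.9% ± 1.86 and ovaries 70.3% ± 10.3, and the gap was 3.84 percentage points.

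Of these 19 CpGs, 16 were higher in testes and 3 were not called, and the ranges were apart at 5. The ovaries carried most of the variation along the amplicon. At −63 bp (position 54645858), testes had 90.5% ± 3.21 and ovaries 43.4% ± 20.9 (difference 47.1 percentage points, exact permutation test, adjusted *p* = 2.58e-05). At 190 bp (position 54645605) testes had 96.6% ± 1.52 and ovaries 96.5% ± 7.29 (difference 0.176 percentage points, *p* = 0.991 by the exact permutation test). Single ovaries differed widely, most at 105 bp (position 54645690), where they ranged from 17.6% to 91.9% against 90.1% to 97.2% in testes. Among testes the widest spread was at 96 bp, with 82.0% to 96.5% in testes and 27.0% to 85.5% in ovaries.

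One CpG of *cyp11c1*, singled out after its values had been seen, departed from its neighbours. At 74 bp (position 54645721), testes had 30.2% ± 2.87 (26.1% to 34.4%) and ovaries 38.1% ± 21.1 (16.6% to 83.7%; exact permutation test, *p* = 0.278). The CpGs next to it, at 70 and 96 bp, had 93.3% and 91.1% in testes. All 10 testes therefore shared a low level at this CpG within an amplicon otherwise methylated to about 90% or more.

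The next question was whether the sex difference was the same on both sides of the TSS, for the 4 genes with CpGs on both sides. For *hsd11b2* the difference over the design CpGs was 67.5 percentage points before and 55.5 after the TSS, which differ by 12.1 (exact permutation test, adjusted *p* = 2.17e-05 over the 4 genes). Ovaries had 22.01% before and 37.3% after the TSS, while testes had 89.6% and 92.8%. For *cyp11c1* it was 43.8 percentage points at the 2 CpGs before and 16.7 at the 17 after the TSS (exact permutation test of the difference, adjusted *p* = 2.17e-05). For *cyp19a1a* the sides differed by 0.0984 percentage points (*p* = 0.825 by the exact permutation test).

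The calls on the sides depended on the cytosines used. Over all listed cytosines the sex difference before minus that after the TSS was 14.3 percentage points for *hsd11b2*, 9.22 for *cyp19a1a* and 8.11 for *cyp11c1* (exact permutation test, adjusted *p* of 3.46e-04, 2.17e-04 and 0.131). Over the cytosines that passed in all 20 fish, the value for *hsd11b2* was −4.39. For *dmrt1*, all of whose listed cytosines are design CpGs, testes minus ovaries was −28.4 percentage points before and −32.7 after the TSS (difference 4.31, exact permutation test, adjusted *p* = 0.0224). Without the 3 fish of low depth it was 3.68 and no longer called.

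*Dnmt1* codes for the methyltransferase that copies methylation to the new strand after replication. Its amplicon covers positions 54352441 to 54352912 of chromosome 3 (minus strand), with 26 CpGs, all before the TSS. Both sexes were nearly unmethylated. The level over all listed cytosines was 0.455% ± 0.183 in testes (0.218% to 0.904%) and 0.548% ± 0.229 in ovaries (0.148% to 0.827%; SD, n = 10 each), and testes minus ovaries was −0.0927 percentage points (*p* = 0.327 by the exact permutation test). For scale, a cytosine at −302 bp of *hsd11b2*, outside the design CpGs and picked for its low level, read 0.299% ± 0.105 in testes and 0.271% ± 0.240 in ovaries in the same libraries. Cytosines that bisulfite leaves unconverted are read as methylated. The conversion that the study reports leaves an unconverted share of about the size of these *dnmt1* means. Whether the small *dnmt1* levels and sex differences given here exceed that share was not tested.

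The *dnmt1* CpGs that were called went the other way from the mean. Over all 26 CpGs the site differences had a median of −0.0859 percentage points, which is the direction of the mean. Of the 26, 5 were called and each was higher in testes, at −106, −122, −175, −179 and −231 bp, with differences of 0.218 to 0.339 percentage points. Examples were chosen after their values had been seen. At −122 bp (position 54352579) testes had 0.479% ± 0.298 and ovaries 0.140% ± 0.0716 (exact permutation test, adjusted *p* = 0.0022). At −175 bp (position 54352632) testes had 0.393% ± 0.192 and ovaries 0.167% ± 0.0354 (exact permutation test, adjusted *p* = 3.42e-04). The share of 5 of 26 is below that of all tested cytosines (64.7%), and the ranges overlapped at each. Among the fish held at 66 fish/L, 4 of these 5 CpGs were higher in testes, as were most of the 26. The mean over the design CpGs was 0.479% in testes and 0.369% in ovaries there. Of the 5, 1 was called there, at −231 bp, with 0.487% in testes and 0.210% in ovaries. Of all 26 CpGs, 11 had the same direction at both densities. The share called at 66 fish/L was larger among the CpGs not called at 9 fish/L than among these 5. For example, the CpG at −158 bp had 0.537% in testes and 0.209% in ovaries there (exact permutation test, adjusted *p* = 4.15e-05).

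Some ovaries had a few CpGs with high values. The highest CpG was over 5% in 6 of the 10 ovaries and in 0 of the 10 testes, while ovary G6 had no CpG at 1%. The highest CpG of an ovary was between 0.258% and 15.9% (median 5.43%), and that of a testis between 0.791% and 2.67% (median 1.20%). It lay at 7 different positions in the 10 testes and at a different position in each of the 10 ovaries. The 2 highest values were in ovaries. Ovary G5 had 15.9% at −162 bp (1435 of 9042 reads, 95% Wilson interval 15.1% to 16.6%), and ovary G1 had 11.98% at −411 bp (876 of 7313 reads, 11.3% to 12.7%). Over all 10 fish the CpG at −162 bp had 0.737% ± 0.348 in testes and 2.03% ± 4.94 in ovaries (exact permutation test, *p* = 0.745). The CpG with the smallest difference of means, at −158 bp, had 0.638% ± 0.302 in testes and 0.686% ± 1.22 in ovaries. The widest spread among testes was at −160 bp (0.185% to 2.67%).

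With the median over the 26 CpGs in place of the mean, all 10 testes exceeded the average ovary. It was 0.376% ± 0.0977 in testes (0.212% to 0.510%) and 0.203% ± 0.0645 in ovaries (0.144% to 0.374%; SD, n = 10 each). Testes were higher by 0.172 percentage points, with an unadjusted *p* of 4.33e-04 by the exact permutation test, for a measure chosen with its values known. When only the highest CpG of each fish was left out of the mean, testes had 0.445% ± 0.120 and ovaries 0.387% ± 0.2004 (exact permutation test, *p* = 0.437). The number of CpGs at 1% or more was 2.10 ± 2.08 per testis and 3 ± 2.40 per ovary (exact permutation test, *p* = 0.440).

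**Figure D4:**
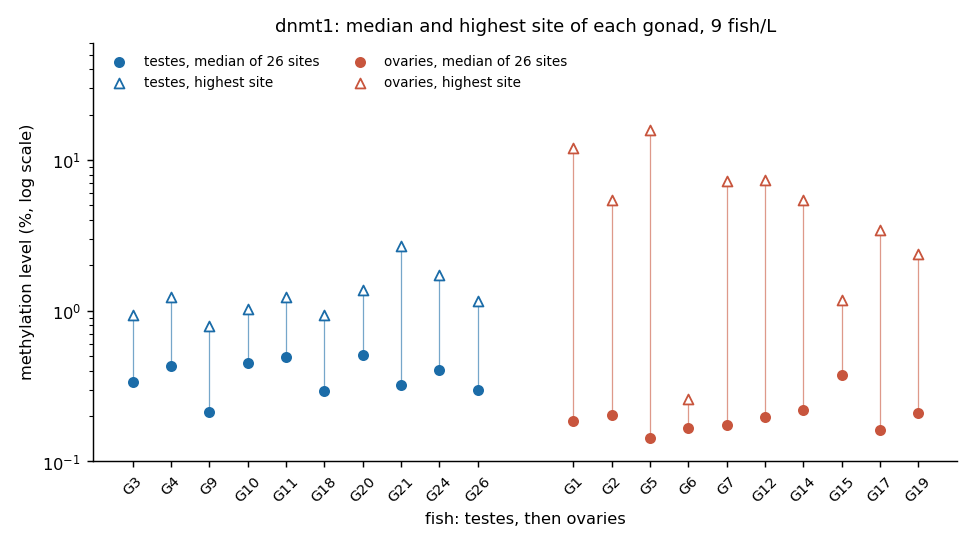
Median over 26 *dnmt1* CpGs (points) and highest CpG (triangles) of each fish, in % on a log scale, testes on the left and ovaries on the right. Medians of testes lie between 0.212% and 0.510%, and 9 of the 10 ovaries have a highest CpG above 1%.

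The fish of one sex also differed among themselves, and the spread was compared by the mean absolute deviation from the median of the sex. Over the design CpGs this deviation, in percentage points, was larger in ovaries than in testes in all 6 genes (exact permutation test, adjusted *p* from 0.00212 to 0.0412). The deviation was 0.759 percentage points in testes and 5.83 in ovaries for *cyp19a1a*, and 1.47 in testes and 8.31 in ovaries for *cyp11c1*. For *hsd11b2* it was 1.497 in testes and 6.62 in ovaries. For *hsd17b1* it was 0.482 in testes and 4.42 in ovaries, but the CpGs at −29 and −246 bp, which mirror each other, offset in the mean of a testis. At these CpGs alone the SD in percentage points was larger in testes (31.1 and 31.4) than in ovaries (11.9 and 16.9). As a share of the mean of the other 4 CpGs, the ranges of ovaries were not narrower. At −246 bp the share was 0.428% to 80.3% in testes and 0.771% to 111% in ovaries. At −29 bp it was 19.9% to 101% in testes and 30.5% to 115% in ovaries. All deviations are in percentage points, and levels near 0% or 100%, as in testes, leave little room to vary. Relative to the mean the order was the opposite for *dmrt1*, with a coefficient of variation of 54.2% in testes and 26.6% in ovaries. It was kept for the other genes, such as *cyp19a1a* with 1.13% in testes and 18.7% in ovaries. That measure allows for levels near 0% but not for levels near 100%, where testes of *cyp19a1a*, *hsd11b2* and *cyp11c1* lie. Spread relative to the unmethylated share was not computed, and by it the order of the sexes can be the opposite. For *cyp19a1a* the SD was 1.06 around a mean of 93.9% in testes and 7.37 around 39.3% in ovaries. With all listed cytosines, a larger deviation in ovaries was called for *dmrt1* only, with 0.749 in testes and 6.01 in ovaries (exact permutation test, adjusted *p* = 0.0386). This call was lost without any 1 of the testes other than G20 or without ovary G1, G6 or G14 (testes minus ovaries −5.31 to −3.46, highest adjusted *p* 0.109).

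Site by site, the SD over fish was larger in ovaries than in testes at 87 of the 99 design CpGs. It was so at all 24 CpGs of *dmrt1*, all 15 of *cyp19a1a*, all 9 of *hsd11b2* and all 19 of *cyp11c1*, at 4 of 6 of *hsd17b1* and at 16 of 26 of *dnmt1*. The exceptions in *hsd17b1* were the CpGs at −29 and −246 bp. For most genes, the counting of reads was a small part of this. At the median CpG of ovaries the variance between fish was 236 times that of read counting in *cyp11c1*. It was 89.1 times in *cyp19a1a* and 66.5 times in *hsd11b2*. In *dmrt1* it was 4.32 times in testes and 2.12 times in ovaries. Read counting thus had a larger share in the spread of *dmrt1* than in that of these genes. These ratios take every read as separate, although the counts do not separate PCR copies of the same molecule. The part of the sampling of molecules in the spread was not tested.

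**Figure D5:**
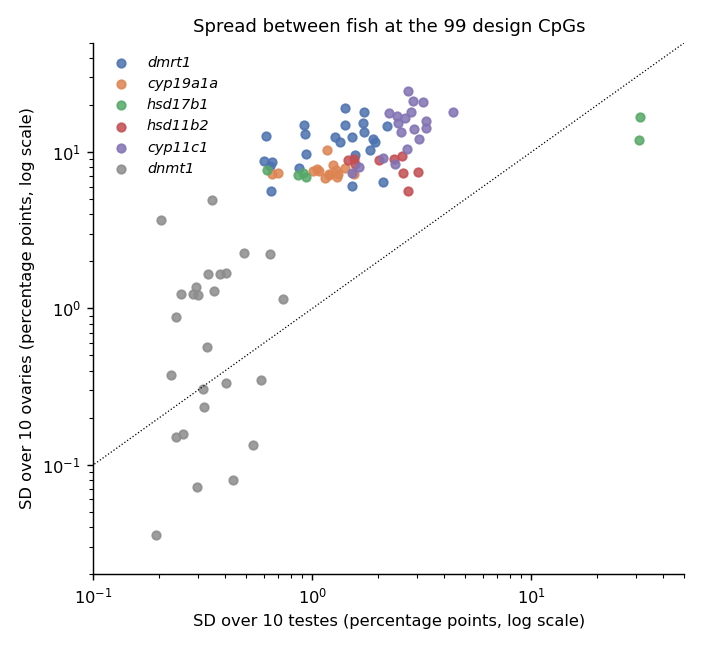
SD over 10 testes (x axis) against SD over 10 ovaries (y axis) at each of the 99 design CpGs, in percentage points on log scales, coloured by gene. The dotted line marks equal SDs. 87 points lie above it, and the 2 green points at the right are the *hsd17b1* CpGs at −29 and −246 bp.

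It was then asked whether the levels of 2 genes went together among fish of 1 sex, over 15 pairs in each sex. Over all listed cytosines, 0 of the 30 pairs had an adjusted *p* under 0.05 by the permutation test of Pearson's r or of Spearman's coefficient, and 4 and 2 had an unadjusted *p* under 0.05. The strongest was *hsd11b2* with *cyp11c1* in testes (n = 10, r = 0.753, permutation *p* = 0.00679, adjusted *p* = 0.204). Spearman's coefficient was 0.709 (permutation *p* = 0.0266, adjusted *p* = 0.484), and r was 0.520 without the 2 fish farthest from the median of *hsd11b2*.

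Over the design CpGs, *cyp19a1a* and *hsd17b1* went together in ovaries (n = 10, r = 0.864, permutation *p* = 0.00163, adjusted *p* = 0.0489). Spearman's coefficient was 0.758 (permutation *p* = 0.0147, adjusted *p* = 0.1496), and r was 0.963 without the 2 fish farthest from the median of *cyp19a1a*. Ovaries G2 and G6 were high in both, with 50.03% and 50.2% in *cyp19a1a* and 41.2% and 43.2% in *hsd17b1*. No other pair passed. The next in ovaries were *cyp19a1a* with *hsd11b2* (r = 0.768, permutation test, adjusted *p* = 0.0920) and *dmrt1* with *hsd17b1* (r = 0.726, permutation test, adjusted *p* = 0.0969). In testes, all 6 pairs among the 4 steroidogenic genes had r between 0.635 and 0.760, with adjusted *p* from 0.0920 to 0.163 by the permutation test. Without the 2 fish farthest from the median of 1 gene of the pair, r was between 0.342 and 0.660.

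Between densities, the sex differences of the gene levels were not called different. Testes minus ovaries was −30.9 percentage points at 9 fish/L and −26.9 at 66 fish/L for *dmrt1*. In the same order of densities it was 37.7 and 35.9 in *cyp19a1a*, 42.8 and 39.6 in *hsd17b1*, 38.8 and 38.1 in *hsd11b2*, then 18.3 and 19.8 in *cyp11c1*. The permutation test of the interaction gave adjusted *p* from 0.460 to 0.814 over the 6 genes. For *dnmt1* the difference was −0.0927 at 9 fish/L and 0.113 at 66 fish/L (permutation test of the interaction, *p* = 0.0767). Of the 77 cytosines called at 9 fish/L, 76 had the same direction at 66 fish/L and 71 were called there too, in other fish. Of all 119 tested cytosines, 95 had the same direction, with a difference of 0 at both densities counted as the same.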

How the data were processed

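For each fish the authors deposited 1 list of cytosines with a methylation percent and the counts of methylated and unmethylated reads, which are whole reads without normalization. Per the labels and the methods of the study, reads were trimmed with Trim Galore 0.4.5, checked with FastQC 0.11.6 and aligned to GRCz11 with Bowtie2 and Bismark. The submitters' processing notes give Bismark 16.0 and the methods another version. The methods also name the removal of duplicates, which would lower the depth of amplicons. The percent deposited by the authors equalled methylated over all reads in all 7221 values of 40 fish (tolerance 1e-06 percentage points).

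Of 3601 values in the 20 fish, 3132 lay inside the amplicons and 2417 of these were covered by more than 5 reads. Amplicon ends, primers, CpG counts and distances from the TSS came from the design table of the study, and no genome sequence was used. 1 list at 66 fish/L repeats its header line, which was skipped.

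Fish were the unit, and labels name no batch. Sexes were compared by two-sided exact permutation tests over all splits of the 20 fish, at 9 fish/L alone. *P*-values were adjusted by the Benjamini-Hochberg method over 6 genes, 119 cytosines, 4 genes (sides of the TSS) or 30 correlations, with a threshold of 0.05. Correlations and the interaction used permutation tests with 100000 resamples. The sites named are, for each gene, the design CpGs with the largest and the smallest sex difference and with the largest SD in either sex, and all 6 of *hsd17b1*. Sites named outside this rule were picked with their values known. The members, the lists and the design CpGs were chosen with earlier results of these data known. The site, spread and interaction tests were tested on simulated data.

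Alternatives were coverage minima of 1, 10, 30 and 100 reads, opposite strands merged, cytosines passing in all 20 fish, the design CpGs, reads pooled per fish, medians, means trimmed by 20%, fish under 20000 reads left out, and quasi-binomial and Fisher tests on reads. The software was Python 3.11.15, with scipy 1.17.1 and statsmodels 0.14.6 for tests and models, pandas 2.3.3 and numpy 2.4.6 for tables, and matplotlib 3.10.9 for plots.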

Additional observations from a re-analysis of the deposited data

Results flagged for a closer look

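In 8 of 62 groups of 10 fish checked (gene levels of each sex over all listed cytosines, and the sites named above), 1 fish stood apart from the rest by Dixon's criterion at 95%. Some of the sites were named for the widest spread, which such a fish produces, and the groups share fish. The 1 in 20 that chance gives for an unselected group is therefore no measure for the 8. Among gene levels of testes, the fish that stood apart were G20 for *dmrt1* (5.04%, the next 2.87%), G18 for *hsd17b1* (55.1%, the next 67.4%), G24 for *hsd11b2* (66.2%, the next 58.5%) and G21 for *dnmt1* (0.904%, the next 0.556%). Over the design CpGs, testis G18 had 78.9% for *hsd17b1* (range of the testes 78.6% to 80.6%) and testis G24 had 92.4% for *hsd11b2* (range 88.1% to 95.1%). Testis G21 had 0.728% for *dnmt1* over these CpGs, and the next testis 0.577%.

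At single CpGs, testis G21 had 2.67% at −160 bp of *dnmt1* (the next 0.814%). Ovary G12 had 76.4% at 190 bp of *cyp11c1* (the next 93.7%). Ovary G5 had 15.9% at −162 bp and 4.08% at −158 bp of *dnmt1* (the next 2.90% and 1.01%).

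Reads outside the 6 amplicons were not used in the comparison. They were methylated in 55.3% of 642 reads in testes and 65.7% of 930 reads in ovaries, pooled over 10 fish each. The spread between fish was not computed, and the sexes were not compared on these reads.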

How the results depend on the processing

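The sex differences of *dmrt1*, *cyp19a1a*, *hsd17b1*, *hsd11b2* and *cyp11c1* kept their direction and their call under every alternative tried and without any 1 fish. No paired analysis was possible, since each fish gave either a testis or an ovary and the labels name no pairs of fish. Depth limits *dmrt1* in ovaries most.

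For *dnmt1*, the difference was 0.131 percentage points with the median over all listed cytosines and 0.172 with the median over the design CpGs. It was 0.0582 without the highest design CpG of each fish (the last 2 measures were chosen after seeing the data). With the quasi-binomial model on pooled reads it was −0.110 and was called, but that p-value was not held to the spread between fish. The exact permutation test over fish gave *p* = 0.327 for the mean over all listed cytosines. With at least 100 reads, 51 sites were called and 0 of them lower in testes, since too few ovaries reach that depth in *dmrt1*. Lower in testes were 42 sites by the quasi-binomial model, which was fitted per site on the read counts of each fish. It called 105 of the 107 sites it tested in either direction, and its p-values were not held to the spread between fish. By Fisher's exact test on pooled reads, which takes reads as independent, 37 were lower. The number of gene pairs called was 1 over the design CpGs, 1 over cytosines passing in all 20 fish and 1 with reads pooled per fish.

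The cause was not tested for the values that follow, all in percentage points. For the spread (testes minus ovaries), the values over the design CpGs, called for each gene, were −5.07 for *cyp19a1a*, −3.93 for *hsd17b1*, −5.13 for *hsd11b2*, −6.84 for *cyp11c1* and −0.113 for *dnmt1*. With reads pooled they were −5.06, −3.93, −4.84, −6.80 and −0.113. Over cytosines passing in all 20 fish, called values were −5.07 for *cyp19a1a*, −4.13 for *hsd11b2*, −6.50 for *cyp11c1* and −0.125 for *dnmt1*. With medians over cytosines they were −5.45 for *cyp19a1a*, −3.72 for *hsd11b2* and −7.84 for *cyp11c1*, while *hsd17b1* (0.0138) and *dnmt1* (0.0192) reversed. At least 100 reads gave −4.54 for *cyp19a1a* and −5.40 for *cyp11c1*. No coverage minimum reversed *cyp19a1a* (1.62), *hsd17b1* (5.76) and *hsd11b2* (1.40), and at least 10 reads reversed *hsd17b1* (1.63). Leaving out 1 fish gave −5.81 to −3.46 for *dmrt1*, a call lost in 12 of 20 cases, −1.42 to 0.236 for *cyp19a1a* and −1.75 to 0.691 for *hsd17b1*.

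For the sides of the TSS (before minus after), *cyp11c1* was −1.66 with no coverage minimum and was called with at least 30 reads (36.1), at least 100 (28.3), the design CpGs (27.1), cytosines passing in all fish (28.0) and pooled reads (27.1). *Cyp19a1a* lost its call with no minimum (1.60), the design CpGs and cytosines passing in all fish (0.0984 each), pooled reads (0.148) and medians (0.0149), and was −0.00298 with at least 100 reads. *Dmrt1* lost it with no minimum (4.31, by the adjustment), at least 30 reads (3.27) and without the shallow fish (3.68), and was −2.73 with medians. *Hsd11b2* lost it with at least 30 (8.58) and 100 reads (2.59), and was −0.954 with no minimum and −4.39 over cytosines passing in all fish.

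The interaction with density changed sign without being called. For *cyp19a1a* it was −0.875 with at least 100 reads, −1.05 over the design CpGs, over cytosines passing in all fish and with pooled reads, and −1.58 with medians. For *hsd17b1* it was −1.21 over the design CpGs and with pooled reads, −0.425 over cytosines passing in all fish, −1.43 with medians and −0.156 without the shallow fish. With no minimum it was 0.388 for *cyp11c1* and −0.568 for *hsd11b2*.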
